A study of Mus musculus with 2 samples.

Results

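The genes that encode collagen chains were compared between the striata of Cx30 KO and WT mice on day 1 after MPTP, a toxin that damages dopaminergic neurons. Members were all genes whose symbol has the form Col, a number, a and a number, and no measured value entered that rule. It found 44 genes with 91 probes among the 36998 gene names on the array. Of the 44 genes, 31 had a probe well above background on at least 1 array, out of 22008 such genes in all, which is 70.5% of the collagens and 59.5% of all names.

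Expression was measured on 2 single-colour arrays of 60-base probes, each of which held striatal RNA of 2 male mice combined into 1 pool. One pool came from WT mice of the labelled strain C57BL/6J. The other came from Cx30 KO mice of the labelled strain Cx30-LacZ, which lack Cx30, a gap junction protein of astrocytes encoded by *Gjb6*. Both groups share age and treatment: 8 weeks, and MPTP in 4 doses of 20 mg/kg given every 2 h. The methods describe the controls as non-mutant offspring of the same crosses, whereas the labels give the groups different strain names. No saline-treated mice were analysed here, so the values do not measure a response to MPTP. With 1 array for each genotype there was no replicate and no test, and genotype, pool and array cannot be told apart. All values below describe these 2 arrays, and where a pair of signals is given, WT comes first.

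*Gjb6*, the gene deleted in the KO, had a processed signal of 1788 on the WT array and 111 on the KO array, 15.4-fold lower after scaling, so the array labelled Cx30 KO had the lower value. The arrays were scaled to their 75th percentile, 401 for WT and 382 for KO, and 32019 and 32961 of 56605 probes were well above background on them. Over all detected genes the median log2 ratio (KO over WT throughout) was 0.03. All 9 striatal neuron markers were detected, and their summed scaled signal (each gene's signal divided by the array's 75th percentile) was 1226 for WT and 1272 for KO. By sign 5 were lower and 4 higher, with a median log2 ratio of −0.16 and a lowest of −0.40. Most of these sums came from *Penk* and *Ppp1r1b*, with log2 ratios of 0.13 and 0.23, and the higher KO sum rests on them. In contrast, all 6 cortical neuron markers were higher in Cx30 KO, with sums of 0.437 and 3.74, and 4 of them were detected on the KO array only. All 8 oligodendrocyte and all 6 microglia markers were lower in sign, with sums of 445 and 296 and of 60.8 and 43.1. The part of these differences in the collagen ratios was not tested. In tissue RNA, fewer cells of a type and less RNA per cell cannot be told apart.

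Collagens are secreted or membrane-bound proteins whose chains wind into a triple helix, in which glycine recurs at regular steps because no other residue fits the core. Fibrillar collagens form the cables of connective tissue, type IV collagens form the network of basement membranes, and type VI collagens form beaded filaments beside them. Fibril-associated collagens (FACIT) attach to fibrils, and others span the plasma membrane. Brain tissue holds little fibrillar collagen outside the meninges and the vessel walls, where fibroblasts make it, whereas endothelial and mural cells surround every capillary with a basement membrane rich in type IV collagen.

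The helix can be read in some of the probes themselves, since a glycine codon (GGN, in capitals) then recurs every 3 codons. A *Col5a3* probe that crosses a splice at chr9:20590066-20590795 on the minus strand of mm9 is shown for this pattern, printed 5′ to 3′.
Col5a3 probe: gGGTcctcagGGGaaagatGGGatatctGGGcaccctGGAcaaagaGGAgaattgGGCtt
Of the 91 collagen probes, 4 showed such a run, in *Col5a3*, *Col6a3*, *Col11a2* and *Col15a1*, and 0 of them were well above background. The probes that represent the 31 detected genes were other probes. Of these, 30 lay within 1 unbroken stretch of the genome and 1 (*Col9a3*) crossed a splice, and whether they lie in coding or untranslated sequence was not determined.

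The study's criteria ask for a ratio of 1.5 or more together with a Z-score from 2.0 upwards, or a ratio of 0.66 or less together with a Z-score from −2.0 downwards. By these, 2 collagens were lower in Cx30 KO and 2 were higher. The lower ones were *Col16a1* and *Col6a4*, and the higher ones *Col6a1* and *Col7a1*. Here the Z-score sets a gene's log2 ratio against the 1000 probes nearest in mean signal. Over all 22008 detected genes the same criteria called 3.39% lower and 2.39% higher, and a count of 2 among 31 collagens in each direction is too small to be set apart from this background. With the ratio limits alone 6 collagens were lower and 4 were higher, against 6.21% and 7.22% of all genes. The lower ones then also included *Col4a5*, *Col17a1*, *Col20a1* and *Col27a1*, and the higher ones *Col6a2* and *Col6a5*. *Col4a5* and *Col27a1* were detected in WT only, and the limit for *Col27a1*, at least 1.29-fold, does not reach the ratio limit. The other 21 collagens lay within the ratio limits. By sign alone, 13 were lower and 18 were higher, with a median log2 ratio of 0.13. Of the 22008 detected genes, 9999 were lower and 12009 higher in sign. This median was 0.04 with quantile normalisation or the authors' values and −0.03 with normexp, a model-based background correction. Normexp was run with an offset of 50 added to every signal, which draws the ratios of dim probes towards 0. The median of all genes ranged from −0.07 to 0.04, so no shared direction of the collagens can be read from their median.

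**Figure D1:**
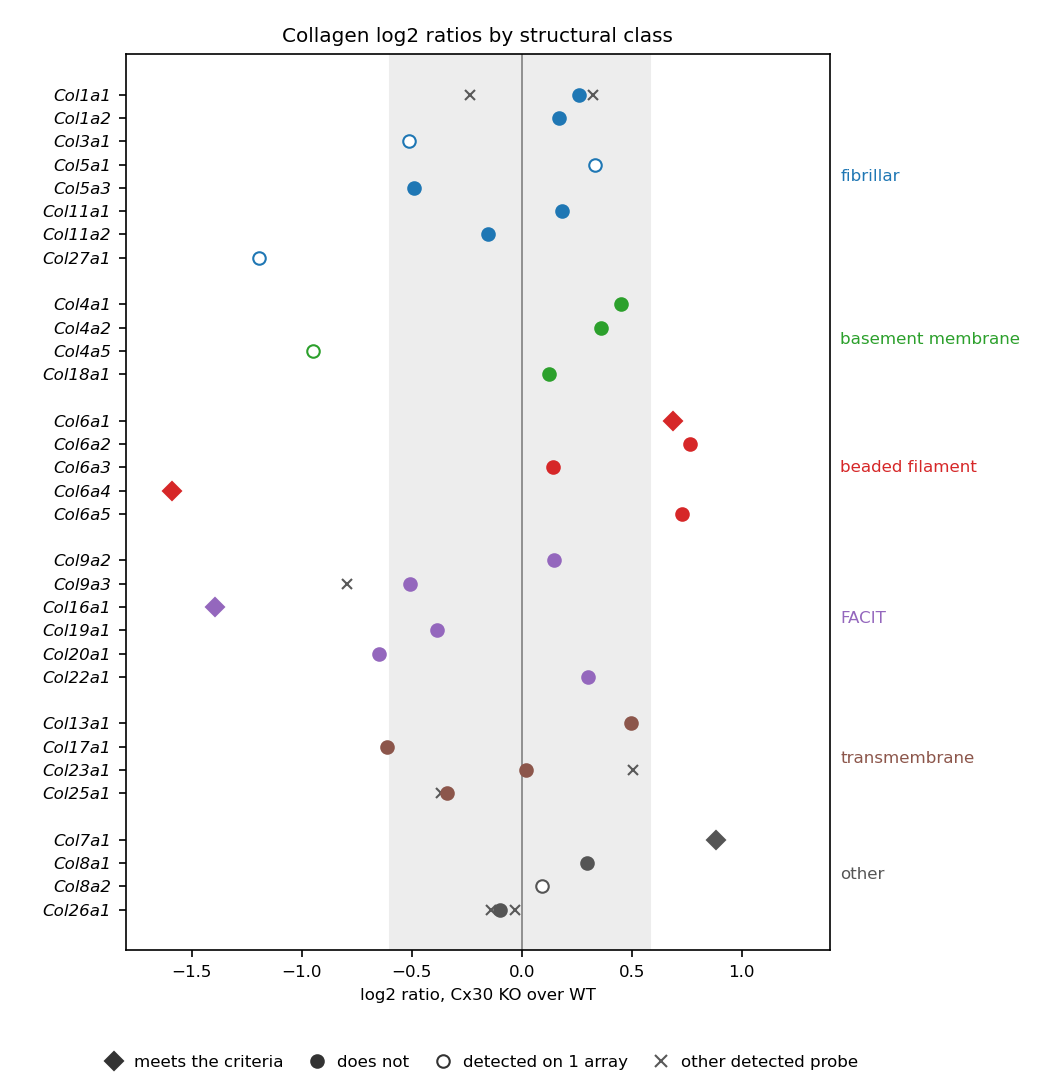
Log2 ratio of Cx30 KO over WT (horizontal axis) for the 31 detected collagens, grouped by structural class. Diamonds meet the study's criteria, open circles are genes well above background on 1 array only, drawn at their measured ratio, crosses are other detected probes of the same gene, and the grey band spans ratios of 0.66 to 1.5. *Col6a4* and *Col16a1* lie at −1.59 and −1.39, and *Col6a1* and *Col7a1* at 0.69 and 0.88.

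The collagen with the most negative Z-score was *Col16a1*, which encodes the chain of type XVI collagen, a FACIT collagen made by fibroblasts and smooth muscle. Its processed signal was 1237 ± 124 on the WT array and 448 ± 45.0 on the KO array, where the error is that of the scanner software's model for 1 array and does not cover the spread between mice. It was 2.63-fold lower (log2 ratio −1.39, Z-score −4.75). The errors of the 2 arrays do not overlap, and the difference rests on 1 probe, at chr4:129776333-129776392 on the plus strand (mm9), because the other 2 *Col16a1* probes were not well above background on either array. Under 5 other ways of making the values (median scaling, quantile normalisation, background correction by normexp, the authors' normalised table, and averaging a gene's probes) its log2 ratio ranged from −1.44 to −1.25. Averaging could not move a gene with 1 detected probe, and the authors' table nearly equals quantile normalisation.

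The 4 genes that met the criteria and *Col6a2*, the partner of *Col6a1*, are shown with the 250 bases before their RefSeq start sites (build GRCm38.p6, in the direction of the gene), because these are the windows in which members with similar and opposite ratios can be compared. Capitals mark, on either strand, GGGCGG (the GC box), CCAAT (the CCAAT box), TATAAA (the TATA box) or TGANTCA (a loose form of the AP-1 site, with any base at N). None of these matches overlaps another here.
Col16a1, chr4:130047590-130047839, plus strand: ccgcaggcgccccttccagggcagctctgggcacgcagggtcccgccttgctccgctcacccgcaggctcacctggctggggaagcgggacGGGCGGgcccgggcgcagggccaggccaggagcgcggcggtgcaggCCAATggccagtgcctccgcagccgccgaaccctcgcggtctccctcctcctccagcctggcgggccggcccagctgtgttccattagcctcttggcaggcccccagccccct
Col6a4, chr9:106096692-106096941, minus strand: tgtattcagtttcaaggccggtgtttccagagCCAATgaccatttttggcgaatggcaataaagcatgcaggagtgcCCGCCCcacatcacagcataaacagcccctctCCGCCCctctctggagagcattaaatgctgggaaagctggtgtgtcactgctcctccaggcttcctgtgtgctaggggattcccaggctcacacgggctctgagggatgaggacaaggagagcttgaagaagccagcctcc
Col6a1, chr10:76726045-76726294, minus strand: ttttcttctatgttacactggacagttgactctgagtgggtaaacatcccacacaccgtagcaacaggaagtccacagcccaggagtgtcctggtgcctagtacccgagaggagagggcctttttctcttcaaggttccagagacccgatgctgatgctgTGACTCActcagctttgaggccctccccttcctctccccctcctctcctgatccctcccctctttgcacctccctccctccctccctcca
Col6a2, chr10:76623631-76623880, minus strand: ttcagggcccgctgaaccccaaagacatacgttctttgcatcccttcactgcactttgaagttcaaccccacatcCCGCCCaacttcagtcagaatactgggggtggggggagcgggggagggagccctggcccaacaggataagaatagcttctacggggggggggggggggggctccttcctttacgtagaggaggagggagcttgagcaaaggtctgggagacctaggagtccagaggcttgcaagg
Col7a1, chr9:108953336-108953585, plus strand: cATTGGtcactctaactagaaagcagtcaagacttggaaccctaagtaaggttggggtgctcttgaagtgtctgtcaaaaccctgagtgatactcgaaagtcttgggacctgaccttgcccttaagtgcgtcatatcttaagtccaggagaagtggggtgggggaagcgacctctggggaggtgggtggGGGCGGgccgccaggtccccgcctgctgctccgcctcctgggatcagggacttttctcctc
The window of *Col6a1* held TGACTCA at positions −90 to −84 from the start site and no match to the other motifs. The windows of *Col16a1*, *Col6a4* and *Col7a1* each held both a GC box and a CCAAT box, and that of *Col6a2*, the more upstream of its 2 RefSeq starts, held a GC box. The window of the other *Col6a2* start, not shown, held 3 GC boxes. Of 27 detected collagens with an entry in the RefSeq table, 19 had a GC box, 12 a CCAAT box, 4 a TATA box and 1 the loose AP-1 form. Among all 32817 promoters of the table the shares were 32.7%, 33.8%, 12.4% and 6.75%. These shares count windows of all genes, whereas the collagens were detected genes, each counted once over their 29 windows. These matches are letters in a window and were not measured as binding sites.

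The beaded filament class, type VI collagen, had the widest spread of ratios of all classes. Of its 6 chains 5 were detected on both arrays, 4 were higher in sign and 1 was lower, with a median log2 ratio of 0.69. *Col6a1* and *Col6a2* encode the chains present in every type VI molecule. *Col6a1* had signals of 641 ± 64.2 for WT and 983 ± 98.3 for KO, a log2 ratio of 0.69 (ratio 1.61, Z-score 2.30) from its only probe, at chr10:76171538-76171597 on the minus strand (mm9). *Col6a2*, which lies beside it on chromosome 10, had signals of 65.8 ± 7.92 and 106 ± 11.3 and a log2 ratio of 0.76 (ratio 1.70). Both were higher in Cx30 KO by similar ratios that differed by 0.08 on the log2 scale, but the Z-score of *Col6a2* was 1.69 and missed the criteria. With normexp background correction the log2 ratio of *Col6a2* was 0.38, below the ratio limit. That of *Col6a1* stayed between 0.64 and 0.70 under all 6 settings, although averaging could not move a gene with 1 detected probe. *Col6a1* no longer met the criteria with a Z-score over all probes or with ratio limits of 2 and 0.5.

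The remaining genes encode chains that can complete the molecule. *Col6a3*, the usual one, had signals of 21.8 ± 4.78 and 22.9 ± 4.42, which overlap within the software's error, and a log2 ratio of 0.14. *Col6a4* had signals of 315 ± 31.8 for WT and 99.4 ± 10.8 for KO, a log2 ratio of −1.59 (ratio 0.332, Z-score −4.39), the lowest of all 31 collagens. *Col6a5* had signals of 33.5 ± 6.27 and 52.9 ± 7.09 and a log2 ratio of 0.73 (ratio 1.66, Z-score 1.20). The alternative chains therefore differed in direction, since *Col6a4* and its neighbour on chromosome 9, *Col6a5*, were 2.32 apart on the log2 scale. *Col6a6*, the third gene of that cluster, was not well above background. The *Col6a4* value comes from the probe at chr9:105892911-105892970 on the minus strand (mm9), and the other *Col6a4* probe was not detected. Its log2 ratio was −1.06 with normexp and between −1.64 and −1.59 otherwise, and the log2 ratio of *Col6a5* was 0.20 with normexp.

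**Figure D2:**
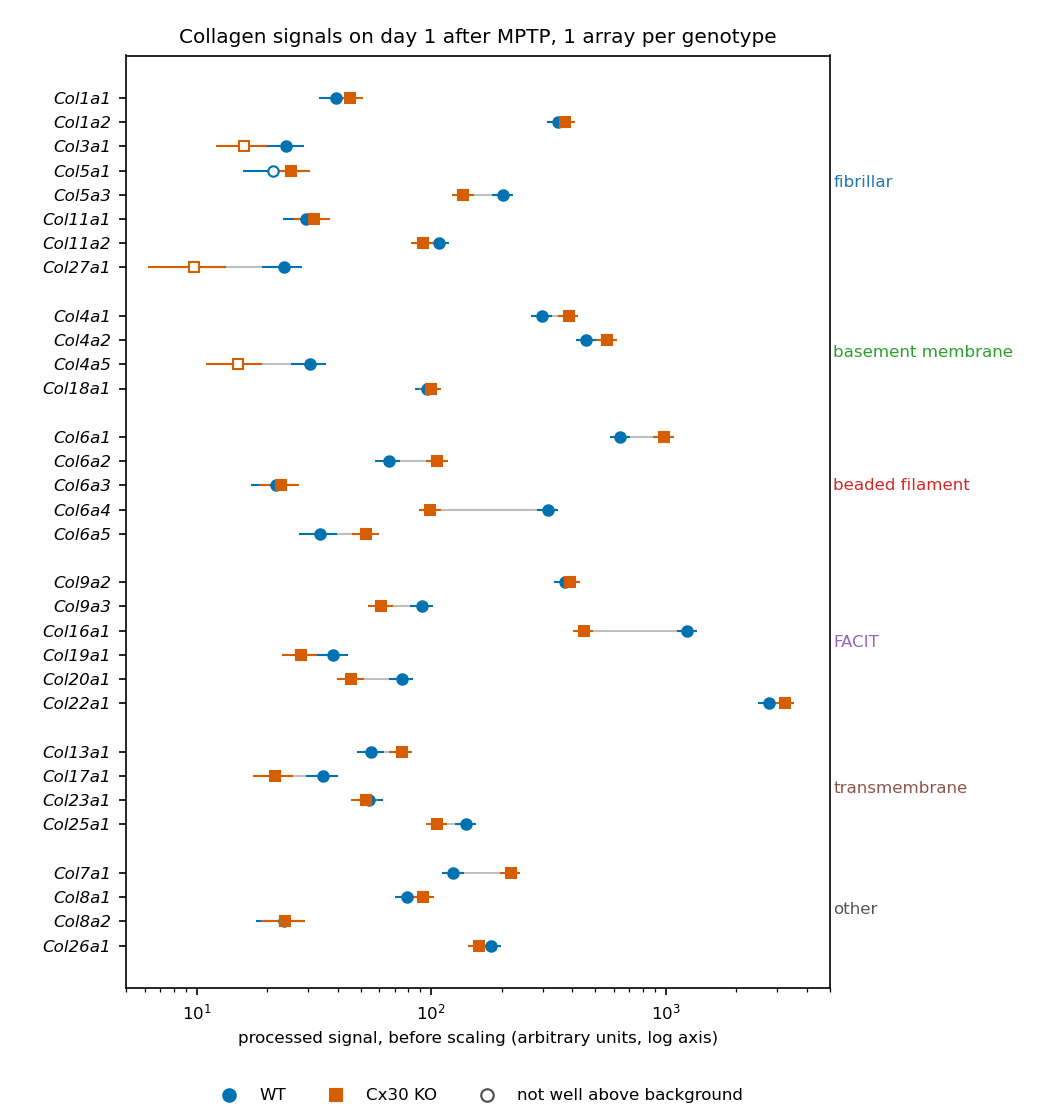
Processed signal of each detected collagen on a log axis in arbitrary units, before scaling, with WT as circles and Cx30 KO as squares and bars for the scanner software's error on 1 array. Open symbols were not well above background. The symbols of *Col16a1* (1237 and 448) and *Col6a4* (315 and 99.4) are the farthest apart among genes detected on both arrays.

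Among the basement membrane collagens, 4 of 8 were detected, with 3 higher and 1 lower in sign, 0 that met the criteria and a median log2 ratio of 0.24, which was −0.067 without the filter on dim probes. *Col4a1* and *Col4a2* encode the chains of the type IV collagen found in nearly all basement membranes, including those of brain capillaries. *Col4a1* had signals of 296 ± 30.0 for WT and 386 ± 38.8 for KO, with a log2 ratio of 0.45 (ratio 1.37, Z-score 1.37). *Col4a2* had signals of 459 ± 46.1 and 562 ± 56.3, with a log2 ratio of 0.36 (ratio 1.29, Z-score 1.18). Both were higher in Cx30 KO by less than the ratio limit and differed from each other by 0.09. They ranged over the 6 settings from 0.38 to 0.45 and from 0.31 to 0.37, although averaging could not move genes with 1 probe each. The pair is transcribed from opposite strands, and the RefSeq starts lie so close that 22 bases, in capitals, belong to both transcripts at chr8:11312801-11312830 (GRCm38.p6, plus strand).
Col4a1 and Col4a2 starts: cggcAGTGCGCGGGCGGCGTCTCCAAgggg

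*Col18a1*, whose end fragment is endostatin, gave 96.1 and 99.8 with a log2 ratio of 0.13, a difference within the software's error. *Col4a5*, an X-linked chain known from kidney basement membrane, gave 30.5 ± 5.27 and 15.0 ± 4.07. Only the WT array was well above background, so the gene was at least 1.67-fold lower in Cx30 KO as scaled here. With normexp its log2 ratio was −0.28, a smaller difference than this limit, but both signals lie below the offset of 50 added there. *Col4a3*, *Col4a4*, *Col4a6* and *Col15a1* were not well above background on either array.

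Of the 11 fibrillar collagens 8 were detected, 4 lower and 4 higher in sign, and 0 met the criteria. The median log2 ratio was 0.01, next to 0.03 over all genes. *Col1a1* and *Col1a2* encode type I collagen, the main fibrillar collagen of meninges and vessel walls. *Col1a1* was printed in 10 spots, which gave 39.4 (SD over spots 5.22) for WT and 44.9 (SD 4.06) for KO, and a log2 ratio of 0.26. A further probe with 10 spots gave 0.33 and one with a single spot gave −0.24, so the probes of this gene disagreed in direction. *Col1a2* had signals of 349 ± 35.2 and 373 ± 37.6 and a log2 ratio of 0.17, within the software's error. With normexp the log2 ratio of *Col1a1* turned to −0.09. No direction for type I collagen can therefore be read from these arrays.

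*Col5a3* and the *Col11a* genes encode the minor chains that lie inside fibrils and set their width. *Col5a3* had signals of 203 ± 20.8 for WT and 137 ± 14.4 for KO, a log2 ratio of −0.49 and a Z-score of −1.35, within the ratio limits. *Col11a1* gave 29.2 ± 5.83 and 31.7 ± 5.55, and *Col11a2* gave 108 ± 11.8 and 92.3 ± 10.2, with log2 ratios of 0.19 and −0.15. Both pairs overlap within the software's error, and *Col11a1* turned to −0.06 with normexp.

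The other fibrillar genes were detected on 1 array each, and their values moved with the processing. Their signals all lie below the offset of normexp, which draws such ratios towards 0. *Col3a1*, the type III chain of vessel walls, gave 24.0 ± 4.71 for WT and 16.0 ± 3.92 for KO, which overlap within the software's error, and its log2 ratio was −0.17 with normexp. *Col27a1*, a cartilage collagen, gave 23.5 ± 4.59 and 9.78 ± 3.58 and was at least 1.29-fold lower as scaled here, but its log2 ratio was −0.29 with normexp. *Col5a1* gave 21.1 ± 5.36 and 25.3 ± 5.07 and was detected in Cx30 KO only, but the errors overlap. For comparison, the lowest signals that counted as well above background were 19.8 (WT) and 17.4 (KO). *Col2a1*, the main collagen of cartilage, *Col5a2* and *Col24a1* were not detected.

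Of the 9 FACIT collagens 6 were detected, *Col16a1* among them. The class had 4 genes lower and 2 higher in sign, and a median log2 ratio of −0.45. *Col9a2* and *Col9a3* encode chains of type IX collagen, which covers type II fibrils in cartilage. *Col9a2* gave 373 ± 37.6 and 393 ± 39.5 with a log2 ratio of 0.15, whereas *Col9a3* gave 91.7 ± 10.3 and 61.4 ± 7.41 with a log2 ratio of −0.51. The chains of type IX thus differed by 0.66, and the second *Col9a3* probe, which only the WT array detected, was also lower, by at least 1.59-fold.

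*Col20a1*, the neighbour of *Col9a3* on chromosome 2, gave 75.1 ± 8.65 for WT and 45.6 ± 5.94 for KO. Its log2 ratio of −0.65 (ratio 0.638, Z-score −1.39) passed the ratio limit but not the Z-score limit, and lay 0.14 from that of *Col9a3*. With normexp it was −0.35, within the ratio limits. *Col19a1*, which interneurons of the brain express, gave 38.3 ± 5.80 and 27.8 ± 4.77 with a log2 ratio of −0.39. *Col22a1*, a collagen of tissue junctions, gave 2748 ± 275 and 3222 ± 322 with a log2 ratio of 0.30 (Z-score 1.13). Before scaling, the software's errors of the 2 arrays overlap for *Col9a2*, *Col19a1* and *Col22a1*, but not for *Col9a3* and *Col20a1*. After scaling, those of *Col22a1* narrowly do not overlap. *Col9a1*, *Col12a1* and *Col14a1* were not detected.

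**Figure D3:**
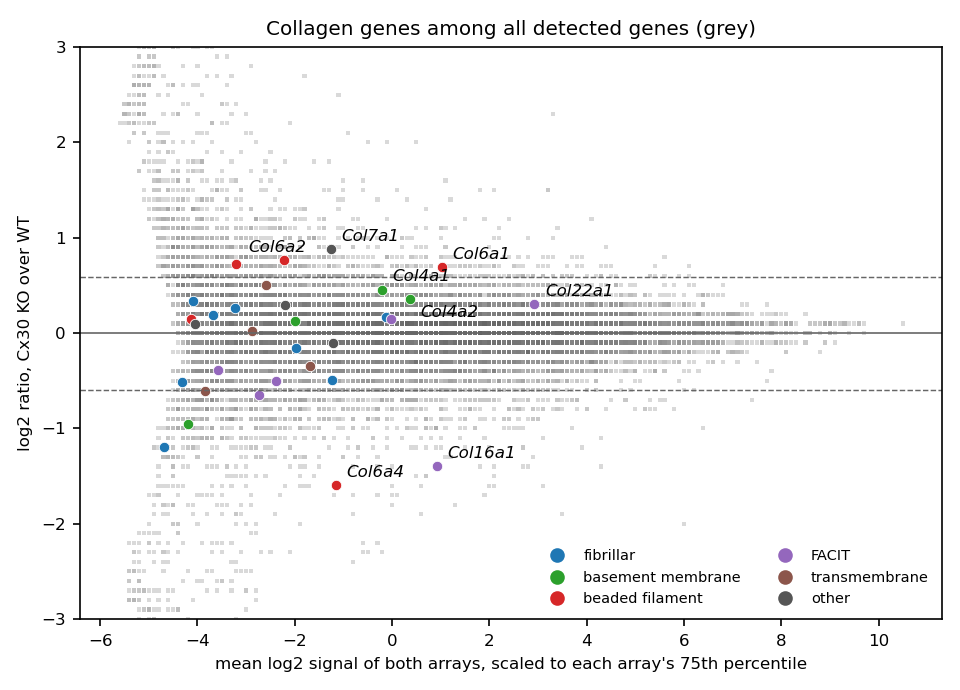
Log2 ratio of Cx30 KO over WT against the mean log2 signal of both arrays, scaled to each array's 75th percentile, with all detected genes binned in grey (darker bins hold more genes, and genes beyond the axis are not drawn) and collagens coloured by class. Dashed lines mark ratios of 1.5 and 0.66. *Col6a4* and *Col16a1* lie at the lower edge of the grey cloud at −1.59 and −1.39, and most other collagens lie inside it.

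All 4 transmembrane collagens were detected, 2 lower and 2 higher in sign, with a median log2 ratio of −0.16, and 0 met the criteria. *Col25a1*, a collagen of neurons that was found in amyloid plaques, gave 141 ± 14.8 for WT and 106 ± 11.3 for KO, a log2 ratio of −0.34, and its second probe gave −0.37. *Col17a1*, a component of the junctions that anchor epithelium, gave 34.7 ± 5.39 and 21.6 ± 4.20, a log2 ratio of −0.61 (ratio 0.655, Z-score −0.94) that was −0.06 with normexp. Of these genes only *Col17a1* passed a ratio limit.

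*Col13a1*, which is known from the neuromuscular junction, gave 55.6 ± 7.18 and 74.8 ± 8.48 with a log2 ratio of 0.50. The probe belongs to an Ensembl transcript, and neither of the probes for its RefSeq transcript was well above background. *Col23a1* gave 54.5 ± 7.65 and 52.6 ± 7.05 with a log2 ratio of 0.02, within the software's error. Its second probe, detected in Cx30 KO only, gave 24.0 ± 5.78 and 32.4 ± 5.74, which overlap too.

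Among the other collagens 4 of 6 were detected, 1 lower and 3 higher in sign. *Col7a1*, the chain of the anchoring fibrils that tie basement membranes to the tissue below, gave 124 ± 13.3 for WT and 218 ± 22.2 for KO. Its log2 ratio of 0.88 (ratio 1.84, Z-score 2.24) was the highest of all 31 collagens. It rests on 1 probe, at chr9:108886855-108886914 on the plus strand (mm9), and with normexp it was 0.57, below the ratio limit. Like *Col6a1*, it lost the call with a Z-score over all probes and with limits of 2 and 0.5.

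*Col8a1*, a network-forming chain of vessel walls, gave 79.3 ± 9.24 and 92.7 ± 10.2 with a log2 ratio of 0.30, within the software's error. *Col8a2* was detected in Cx30 KO only, at 23.5 ± 5.51 and 23.9 ± 5.05, a difference within the software's error. *Col26a1* gave 180 ± 18.5 and 160 ± 16.4 with a log2 ratio of −0.10, and its other probes gave −0.14 and −0.03. These 3 probes thus gave log2 ratios close to 0, and the median of the class was 0.20. *Col10a1* and *Col28a1* were not detected.

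**Figure D4:**
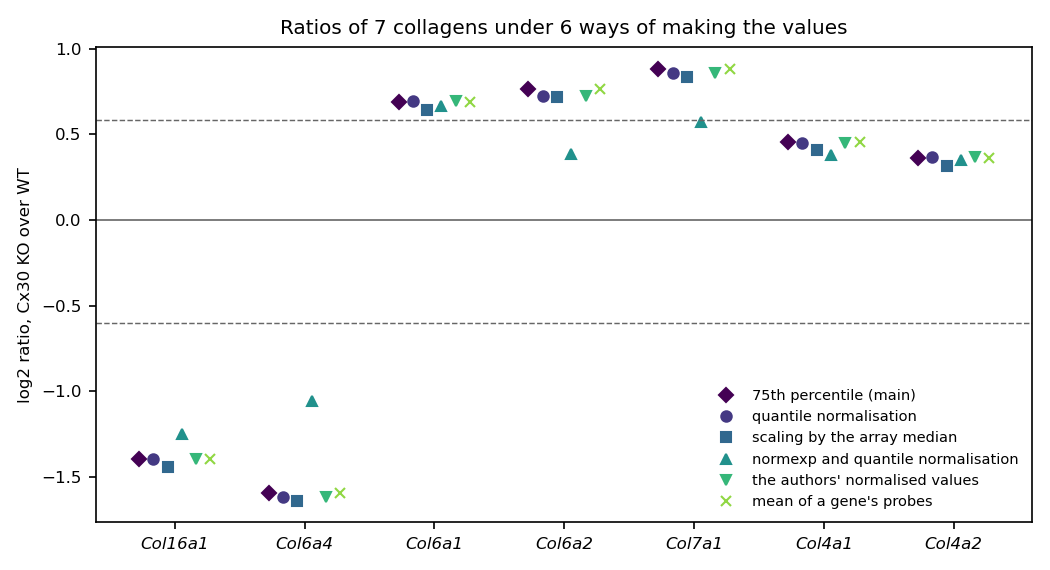
Log2 ratio of Cx30 KO over WT for *Col16a1*, *Col6a4*, *Col6a1*, *Col6a2*, *Col7a1*, *Col4a1* and *Col4a2* under 6 ways of making the values, with dashed lines at ratios of 1.5 and 0.66. Every one of these 7 genes kept its sign, and normexp, with its offset of 50, moved *Col6a2* to 0.38 and *Col7a1* to 0.57, below the upper line. Each gene has 1 detected probe, so averaging probes repeats the main value, and the authors' values nearly equal quantile normalisation.

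Genes that modify, fold and crosslink collagen were described next, from a list of 30, of which 28 were detected. By sign 20 were lower and 8 were higher, the median log2 ratio was −0.12, and 5 met the criteria lower and 0 higher. The background for these 5 of 28 genes is again 3.39%, and that for the signs is 9999 lower and 12009 higher of 22008 genes. *Serpinh1*, the chaperone HSP47 of procollagen, had signals of 565 ± 56.7 for WT and 286 ± 28.9 for KO and a log2 ratio of −0.91. *Crtap*, part of the complex that hydroxylates proline at position 3, gave 403 ± 40.6 and 187 ± 19.2 (log2 ratio −1.04), and *Plod1*, a lysyl hydroxylase, gave 285 and 152 (log2 ratio −0.84). These act in the endoplasmic reticulum, and all were lower in Cx30 KO.

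Outside the cell, *Bmp1*, which removes the end of procollagen, gave 2727 ± 273 and 1411 ± 141 with a log2 ratio of −0.88, although its other probes gave −0.48 and −0.13. *Loxl1*, a lysyl oxidase that crosslinks elastin and collagen, gave 328 ± 33.1 and 134 ± 14.0 with a log2 ratio of −1.21. Of the prolyl 4-hydroxylase chains, *P4ha1* had a log2 ratio of −0.49, *P4ha2* 0.06 and *P4hb* −0.03, while *P4ha3*, which only the WT array detected, was lower by at least 2.23-fold. *Lox* and *Loxl4* were not detected.

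Of 10 collagen receptor genes 8 were detected, 5 lower and 3 higher in sign, with a median log2 ratio of −0.28, and 1 met the criteria. This was *Lair1*, an inhibitory receptor for collagen on immune cells, with 387 ± 38.9 for WT and 201 ± 20.5 for KO and a log2 ratio of −0.87. The 6 microglia markers were lower in sign too, by the probes that stood for them, and their part in the *Lair1* ratio was not tested. *Itga1*, the integrin chain that binds type IV collagen, had a log2 ratio of 0.88 from 1 probe and −0.34 from another, so its probes disagreed. *Itga11* likewise had 0.00 from 1 probe and 1.04 from another. *Itga10* had a log2 ratio of −0.64. *Itga2* and *Mrc2* were not detected.

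The small leucine-rich proteoglycans, which bind fibrils and set their spacing, had 5 of 8 members detected and 0 that met the criteria, with a median log2 ratio of −0.22. *Dcn* had a log2 ratio of 0.26, *Bgn* 0.13 and *Fmod* −0.22, and *Lum*, *Kera* and *Aspn* were not detected. All 16 laminin, nidogen and other basement membrane partner genes were detected, 7 lower and 9 higher in sign, with a median of 0.06. The 1 that met the criteria was *Lamb3*, a chain of the laminin that epithelial anchoring uses, at 136 ± 14.5 for WT and 282 ± 28.6 for KO. Its log2 ratio was 1.13, and the second probe gave 1.14. *Lama1*, *Lama2* and *Lama4* had log2 ratios of 0.08, −0.26 and 0.19 (other probes −0.81 for *Lama2* and 0.11 to 0.61 for *Lama4*), and *Lama3* was detected in Cx30 KO only.

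**Figure D5:**
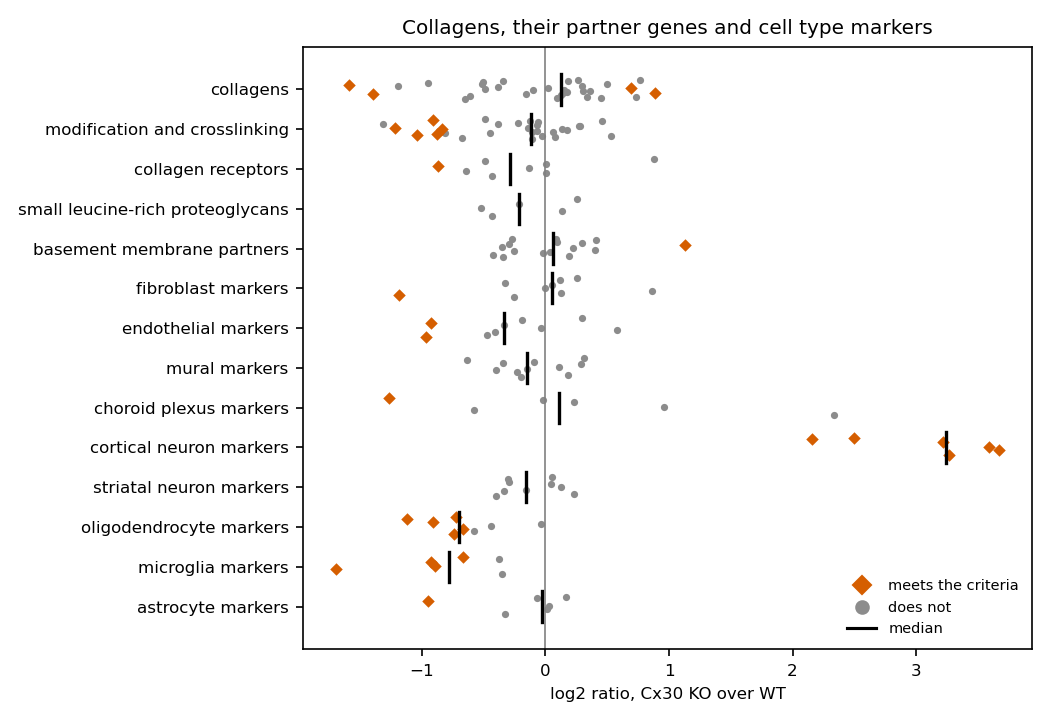
Log2 ratio of Cx30 KO over WT for each detected gene of the collagens, of 4 lists of partner genes and of 9 lists of cell type markers, with diamonds for genes that meet the study's criteria and a bar at each list's median. Genes detected on 1 array are drawn at their measured ratio. The collagen median is 0.13, that of the modification and crosslinking list is −0.12, and the 6 cortical neuron markers lie to the right of all other medians.

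Markers of the cells that make collagen in the brain were measured beside these genes. Of 11 fibroblast markers 9 were detected, and *Lum* and *Foxd1* were not. By sign 4 were lower and 5 higher, with log2 ratios from −1.19 to 0.86 and a median of 0.05. The summed scaled signal was 11.1 for WT and 10.4 for KO. Only *Slc13a3* among them met the criteria (signals 1019 and 425, log2 ratio −1.19), and the lower KO sum came from this gene. All 9 endothelial markers were detected, 7 lower and 2 higher in sign, with a median of −0.34 and sums of 22.6 and 18.3. Their log2 ratios ranged from −0.97 to 0.58, and *Flt1* and *Itm2a* met the criteria at −0.93 and −0.97. Most of the fall in the sum came from 1 *Flt1* probe (3414 and 1708), and the other 2 *Flt1* probes gave −0.15 and 0.52.

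All 11 mural cell markers were detected, with a median of −0.15, sums of 32.8 and 33.9 and 0 that met the criteria. Choroid plexus markers had 6 of 7 detected, all but *Slc4a5*, 3 lower and 3 higher in sign, with a median of 0.11 and sums of 4.07 and 3.64. *Ttr* met the criteria at −1.27, whereas *Otx2* and *Kcne2*, named after their values were seen, were higher in sign and detected in Cx30 KO only. All 6 astrocyte markers were detected, with a median of −0.03 and sums of 362 and 346, and *Aqp4* met the criteria at −0.95, although its other 3 probes ranged from −4.24 to 0.02. Most of the astrocyte sums came from *Aldoc*, and most of the choroid plexus sums from *Clic6*. The part of any of these in the ratios of *Col16a1*, *Col6a4*, *Col6a1* and *Col7a1* was not tested. None (0) of the 44 collagen genes lies on chromosome 14, which carries *Gjb6*.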

How the data were processed

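Striatal RNA of MPTP-treated WT and Cx30 KO mice was hybridised to 2 single-colour arrays, 1 pool of 2 mice each. The authors extracted the spots with Agilent Feature Extraction, version 10.7.1.1 in the file headers and 9.5.1.1 in the submitters' processing notes. The deposited processed signals are linear intensities after background subtraction and detrending within each array, not normalised between arrays. The deposited table of normalised values, also linear intensities, equals the quantile-normalised processed signals within 1% for 99.989% (WT) and 99.993% (Cx30 KO) of probes. Probe positions refer to mm9.

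After removal of control and outlier spots, log2 signals were averaged per probe and scaled to the array's 75th percentile. Probes with the software's mark on 50% or more of their spots were taken as well above background, and the brightest of them stood for a gene. A RefSeq table replaced older symbols on 1895 probes. A gene well above background on 1 array was limited by the larger of the other array's lowest signal well above background and its own signal there. The methods name no set of probes for the Z-score, so the 1000 probes nearest in mean signal were used, and this step was tested on simulated data. Saturated spots numbered 0. Spots of 1 probe varied with an SD of 0.07 in log2 ratio (298 probes with at least 5 spots), and probes of 1 gene with an SD of 0.26 (7147 genes). The number of arrays limits the precision, and no error between mice could be had.

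All collagens are named, and of the partner and marker lists those that meet the criteria and up to the first 4 of each partner list. Members and lists were chosen with earlier results of these data known. As alternatives, arrays were quantile-normalised, scaled by the median, or corrected by normexp (offset 50) and then quantile-normalised, and the authors' normalised table was used. Dim probes were kept, or genes were required on both arrays, or the probes of a gene were averaged. The Z-score was taken from all probes or from the nearest 200, and ratio limits of 2 and 0.5, or the ratio limits without a Z-score, were applied. Python 3.11.15, numpy 2.4.6, pandas 2.3.3, R 4.3.3 and limma 3.58.1 were used. The arrays of saline-treated mice were not analysed here.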

Additional observations from a re-analysis of the deposited data

How the results depend on the processing

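*Col16a1* and *Col6a4* were called lower under all 11 alternatives, but several of these could not change the calls. Each gene has 1 detected probe, seen on both arrays, so averaging probes and changing the filter left its ratio as it was. Dropping the Z-score only loosens the criteria, and the authors' values nearly equal quantile normalisation. With the ratio limits alone, 6 collagens were lower and 4 higher, among them 1 fibrillar, 1 basement membrane, 2 FACIT and 1 transmembrane collagen lower and 3 beaded filament collagens higher. With ratio limits of 2 and 0.5 and with a Z-score over all probes 0 collagens were higher, so that the beaded filament and the other class had 0 each, and the latter setting called 1 fibrillar collagen, *Col27a1*, lower. With normexp 1 collagen was higher (*Col6a1*), the other class had 0, and the median was 0.20 for beaded filament and −0.19 for FACIT collagens. Without the filter on dim probes the medians were 0.42 for beaded filament and −0.067 for basement membrane collagens, a change of sign. For modification and crosslinking genes 2 were lower with the Z-score over all probes and 2 with limits of 2 and 0.5, 8 were lower with the ratio limits alone, and 1 was higher without the filter. For receptors 0 were lower under both stricter settings, and 2 were lower and 1 higher with the ratio limits alone. For basement membrane partners 0 were higher with the Z-score over all probes. Over all genes, 746 lower and 525 higher became 1367 and 1589 with the ratio limits alone, 427 and 339 with limits of 2 and 0.5, 455 lower with the Z-score over all probes, and 332 higher among genes detected on both arrays. The cause was not tested. *Col1a1*, *Col11a1* and *Col23a1* changed sign under some settings. Single probes near background are limited by depth of signal, and most of their changes came with normexp, whose offset of 50 draws such ratios towards 0. No paired analysis was possible because each genotype has 1 array.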
